A study of Bos taurus with 57 samples.

Results

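ENSBTAG00000021237 is 1 of 24616 Ensembl genes counted in testes, arcuate nucleus and anterior pituitary of Holstein Friesian bull calves, which had been fed on either a high or a low nutritional plane. It was chosen by measured values of these data, namely its high read count in testes and its lower level there on the low plane, so both are given as descriptions without a test. The files list the gene by its identifier only, and none of the 24616 identifiers was found in the RefSeq gene table used here, so its name, position, length and sequence are not given. All calves were male and were slaughtered at 126 days of age. By the sample labels, high plane calves grew at 1.08 kg/day and low plane calves at 0.5 kg/day, while the series text gives a higher target for the high plane. Milk replacer and concentrate were offered in larger amounts on the high plane. The testes gave 10 libraries on the high plane and 8 on the low plane, the anterior pituitary 9 and 10, and the arcuate nucleus 10 on each plane. The low plane is read against the high plane throughout, as all calves received 1 of these diets. The calf behind each library is not in the labels, and RNA came from homogenised tissue, so each value is a mixture of cell types.

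The arcuate nucleus lies at the base of the hypothalamus and relays metabolic state to the neurons that drive the reproductive axis. The anterior pituitary answers with luteinising and follicle stimulating hormone. In the testes these hormones act on the steroid-producing Leydig cells between the tubules and on the Sertoli cells that nurse the germ cells inside them. In a calf of this age the tubules are still maturing, and the makeup of the tissue changes as they do. In whole tissue, fewer cells of a type and less RNA per cell cannot be told apart.

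A testes library held between 8586953 and 26067610 counted reads, an anterior pituitary library between 6895844 and 27426173, and an arcuate nucleus library between 898979 (C22) and 32009433. Levels are given in CPM, the usual read count relative to library size, scaled with TMM factors over all 57 libraries. At the reads counted on this gene the counting error was at most 1.39% of the value in testes, 1.71% in the anterior pituitary and 3.69% in the arcuate nucleus, which is small against the spread between libraries. The high plane testes library A48 carries the letter of the anterior pituitary in its title and B48 in its data header, and was kept with the testes as its tissue label states. Libraries also differed along a main axis of variation, summarised for each library as a score. For testes the score is an average over 200 genes picked from the arcuate nucleus and anterior pituitary data, on the log2 CPM scale, and was below 2 in 6 of the 18 testes libraries. They were B42 on the high plane and B21, B2, B15, B26 and B20 on the low plane. The defining markers of the tissues could not be looked up without gene names.

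By reads, ENSBTAG00000021237 stood 90th among the 22408 genes with at least 1 read in testes, so that 0.397% of them held more. Rank by reads is not corrected for gene length. Within single high plane testes libraries it stood between 46th and 94th, with a median place of 75. On the low plane it stood between 104th and 370th, with a median place of 159, so no low plane library ranked it as high as any high plane library did. High plane libraries spent 0.108% ± 0.0146 (SD, n = 10) of their counted reads on it, and low plane libraries 0.0645% ± 0.0146 (SD, n = 8). Averaged within diets, it was 69th on the high plane and 154th on the low plane.

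The gene was also among the most read genes of the other tissues. It stood 85th by reads in the arcuate nucleus and 93rd in the anterior pituitary. Its level averaged 874 ± 140 CPM (SD, n = 20) in the arcuate nucleus, 656 ± 92.7 CPM (SD, n = 19) in the anterior pituitary and 803 ± 242 CPM (SD, n = 18) in the testes, where the spread holds the diet difference. Every library of every tissue held it at 355 CPM or more.

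The 6 tissue and diet groups formed the following order by mean level. High plane testes came first at 987 ± 124 CPM (SD, n = 10), followed by the high plane arcuate nucleus at 895 ± 117 (SD, n = 10) and the low plane arcuate nucleus at 853 ± 163 (SD, n = 10). The low plane anterior pituitary followed at 679 ± 103 (SD, n = 10), the high plane anterior pituitary at 631 ± 78.4 (SD, n = 9), and low plane testes came last at 574 ± 120 (SD, n = 8). Neighbours in this order overlapped throughout, and the gap between neighbours was smaller than the spread within them except between the low plane arcuate nucleus and the low plane anterior pituitary, which were 174 CPM apart. The testes thus held both ends of the order. High plane testes averaged 1.13 times the arcuate nucleus level and 1.503 times the anterior pituitary level, whereas low plane testes averaged 0.657 and 0.875 times these levels. The last places depended on scaling. With library totals in place of TMM factors, low plane testes (645 CPM) came above the low plane (623) and high plane (561) anterior pituitary.

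**Figure D1:**
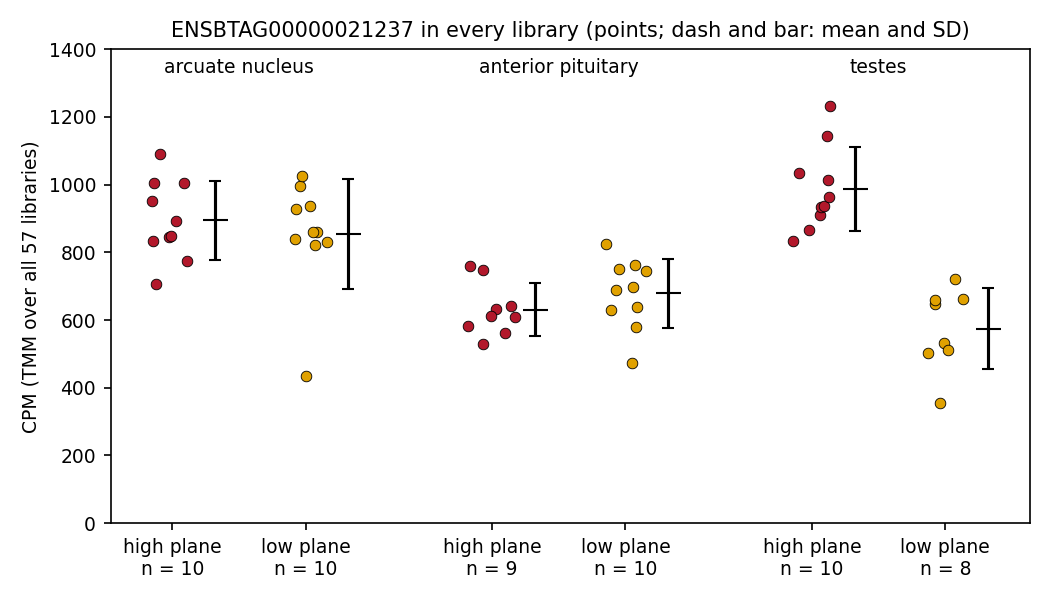
Level of ENSBTAG00000021237 in each of the 57 libraries, in CPM scaled over all libraries, by tissue and diet, with the mean and SD beside each group. The testes points fall into separate ranges by diet, from 833 to 1233 CPM on the high plane and from 355 to 722 CPM on the low plane, while the diets overlap in the other tissues.

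In testes the 10 high plane libraries ran from 833 CPM in B54 to 1233 CPM in B49, with a median of 950 CPM. The 8 low plane libraries ran from 355 CPM in B21 to 722 CPM in B31, with a median of 591 CPM. The ranges did not overlap, with B54 above B31. The log2 fold change of the low relative to the high plane was -0.81 (standard error 0.13), which is 0.571 times the high plane level. Among the 15310 genes tested in testes, 2.16% were called lower on the low plane (edgeR's quasi-likelihood test, FDR below 0.05) and 4.75% higher, and 0.0914% had every low plane library below every high plane library. With library totals in place of TMM factors the calls were 311 lower and 2025 higher, against 330 and 727. These shares are given as background only, since the gene was picked from this contrast.

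The gene was picked from the testes contrast, so the following fits describe the testes difference and do not test it. Leaving out each testes library in turn kept the log2 fold change between -0.86 (without B31) and -0.72 (without B21), and it was -0.82 without A48. The low plane testes libraries held fewer reads, with a median total of 14180871 against 18655866 on the high plane, and lower library scores. With the log2 total count as covariate the log2 fold change was -0.79, and with the library score it was -0.74. Among libraries with a score above 2, the 9 of the high plane ran from 833 to 1233 CPM and the 3 of the low plane from 533 to 722 CPM. Among the 6 with a lower score, B42 on the high plane had 1014 CPM and the 5 low plane libraries ran from 355 to 662 CPM. Without these 6 libraries the log2 fold change was -0.66.

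The 5 genes next above it and the 5 next below it in mean testes CPM ran from 780 to 819 CPM and show how far the diet difference varied at this level. Their log2 fold changes ran from -1.72 to 0.66, with 1 called lower and none called higher by the same edgeR test, where 2.16% and 4.75% of all tested genes were. In all, 200 tested genes averaged at least 500 CPM in testes, of which 10 were called lower and 2 higher, beside the same 2.16% and 4.75% of all tested genes, with a median log2 fold change of 0.01. ENSBTAG00000021237 had the 27th lowest log2 fold change of the 200, so 26 abundant genes differed more in that direction, and it was the only 1 of them with every low plane library below every high plane library. The choice from the diet contrast favours such separation and a small spread, so both are descriptions only. The spread of ENSBTAG00000021237 between libraries of a diet was small. The SD of its log2 CPM within diets was 0.255 in testes, against a median of 0.410 over the 252 genes within 1 log2 CPM of it, of which 17.5% varied less.

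**Figure D2:**
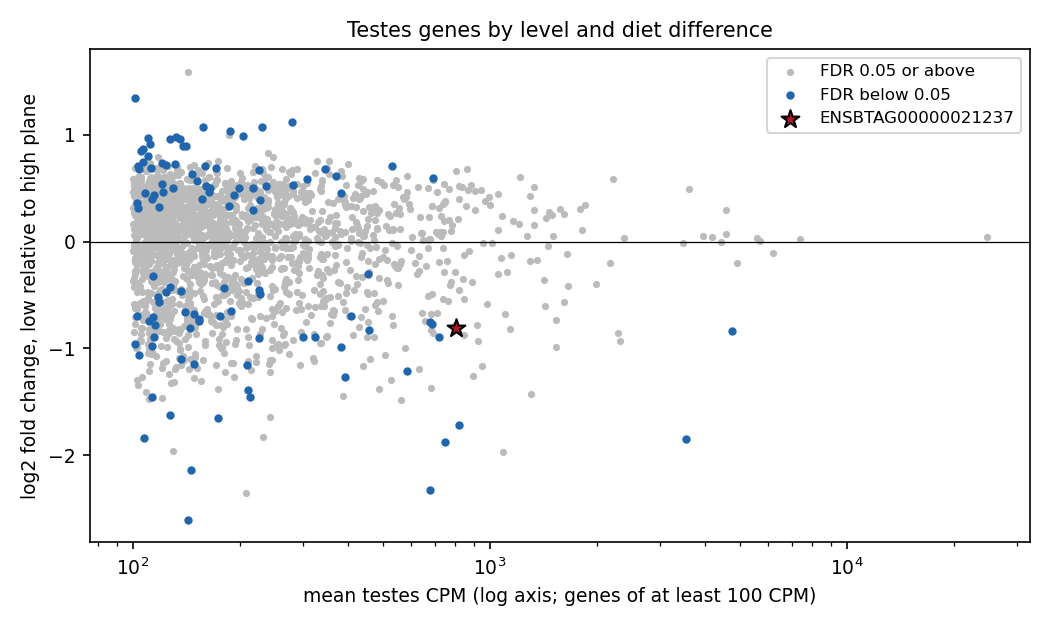
Each point is a testes gene of at least 100 CPM, with its mean level on a log axis and its log2 fold change of the low relative to the high plane. The star marks ENSBTAG00000021237 at 803 CPM and -0.81, below most genes of its level but not at the lower edge of the cloud.

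The arcuate nucleus and the anterior pituitary took no part in the choice of the gene, and the diet difference was tested there. In the arcuate nucleus the high plane libraries ran from 707 to 1090 CPM with a median of 870, and the low plane libraries from 435 to 1024 CPM with a median of 859. The ranges overlapped, and C6 on the low plane lay far below the rest. The log2 fold change was -0.07 (95% confidence interval -0.32 to 0.18), with an FDR of 0.749 by edgeR's quasi-likelihood test, in a tissue where that test called 0 of 14757 genes (0%). Before adjustment 1464 genes had p below 0.05 in that fit. DESeq2 and edgeR's exact test each called 1 gene, limma with voom none, and a fit over all tissues 94 lower and 29 higher. Without C6 the log2 fold change was 0.00598, so its sign rested on that library.

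In the anterior pituitary the high plane libraries ran from 530 to 761 CPM with a median of 613, and the low plane libraries from 473 to 825 CPM with a median of 693. The low plane range enclosed the high plane range. The log2 fold change was 0.10 (95% confidence interval -0.12 to 0.32), with an FDR of 0.941 by the same edgeR test, which called 0.562% of 14411 genes in this tissue. Neither interval held the testes value of -0.81, but the choice of the gene favours a large value there. Setting the intervals against it is therefore no comparison of the tissues. The difference between tissues in the diet effect was not tested, since the gene was chosen for the testes effect.

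Genes that rose and fell with it from library to library within a diet were then ranked. For each gene kept in testes the diet mean was subtracted from its log2 CPM, and the remainders were correlated with those of ENSBTAG00000021237 over the 18 libraries. Subtracting the diet mean removes the contrast that chose the gene. The correlations are descriptions, with no p-value, since all genes of a library share its depth and RNA and the genes named are the extremes of 15309. For ENSBTAG00000021237 the remainders ran from -0.65 in B21 to 0.36 in B31 on the log2 scale. B31 and B49 were the high ends of their diets, while B21 and B54 were the low ends.

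The closest follower was ENSBTAG00000010129, with Pearson's r = 0.843 and Spearman's rho = 0.806 (18 libraries). Its r was 0.764 without B21 and B31, the 2 libraries farthest from the median, and was 0.914 within the high plane and 0.813 within the low plane. It is a scarce gene in testes, from 3.12 to 9.94 CPM with a median of 5.11 on the high plane and from 1.08 to 4.50 CPM with a median of 2.401 on the low plane. These ranges overlapped. The same quasi-likelihood test of edgeR called it lower on the low plane (log2 fold change -1.16, standard error 0.29, FDR 0.0279). In the arcuate nucleus it averaged 26.8 CPM, above its testes mean of 4.35 CPM.

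The next was ENSBTAG00000037413, with r = 0.828 and rho = 0.792, and with r = 0.738 without B21 and B31. It ran from 41.5 to 70.8 CPM with a median of 51.9 on the high plane and from 19.7 to 53.4 CPM with a median of 32.7 on the low plane. B49 was its highest high plane library and B31 its highest low plane library, as for ENSBTAG00000021237, and the diets overlapped only through B31 and B15. It too was called lower by edgeR, with an FDR of 0.0336 and a log2 fold change of -0.70 (standard error 0.18). Both followers were thus lower on the low plane. The ranking left out the diet means, but r and the fold changes come from the same testes libraries. Low library scores were also more frequent on the low plane. These calls are therefore not independent of the ranking, and follower calls changed with depth and the library score, as given below.

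Over the 15 closest followers r ran from 0.742 to 0.843, and they ran with each other too, with a median r of 0.760 over their 105 pairs. Their log2 fold changes on the low plane ran from -3.53 to -0.30, and 12 of the 15 were called lower and none higher, where 2.16% and 4.75% of all tested genes were. These calls changed with the fit, as given for the 100 closest followers. Their mean testes levels ran from 2.58 to 118 CPM, all well below that of ENSBTAG00000021237. Without B21 and B31 the r of the 15 lay between 0.486 and 0.857.

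At the other end stood ENSBTAG00000027625 with r = -0.838 and ENSBTAG00000001728 with r = -0.782. ENSBTAG00000027625 ran from 3.39 to 6.85 CPM with a median of 5.34 on the high plane and from 7.39 to 41.6 CPM with a median of 10.3 on the low plane, so every low plane library lay above every high plane library. The highest value was that of B21, where ENSBTAG00000021237 was lowest. In edgeR's test it was called higher, at an FDR of 0.0207 and a log2 fold change of 1.38 (standard error 0.30). ENSBTAG00000001728 ran from 0.918 to 2.10 CPM on the high plane and from 1.08 to 8.65 CPM on the low plane, with overlap, and was called higher at an FDR of 0.0285 (log2 fold change 1.38, standard error 0.34, edgeR). With B21 and B31 left out, r was -0.631 and -0.634. Within the high plane the r of these genes was -0.335 and -0.367, and within the low plane -0.986 and -0.904. The difference between the diets was not tested.

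**Figure D3:**
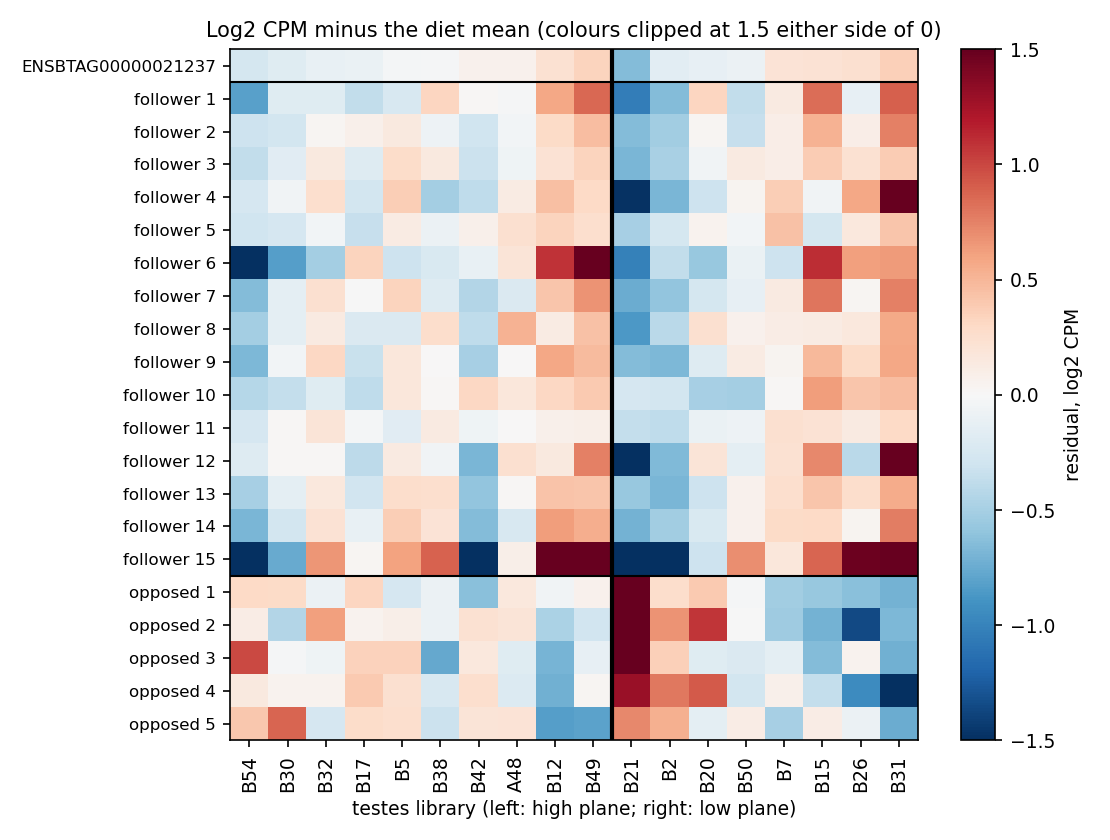
Log2 CPM minus the diet mean for ENSBTAG00000021237 (top row), its 15 closest followers and the 5 most opposed genes, with the testes libraries of each diet ordered by the remainder of ENSBTAG00000021237. Red is above and blue below the diet mean. B21, B2 and B54 are blue for all 15 followers and red for all 5 opposed genes, and B12 and B31 show the reverse.

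Across the 100 closest followers, whose r ran from 0.635 to 0.843, 97 had a negative log2 fold change on the low plane, with a median of -0.61 against -0.01 over all 15309 tested genes other than ENSBTAG00000021237. Of the 100, 55 were called lower and none higher, where 2.16% of all tested genes were called lower. Among the 100 most opposed genes, with r from -0.838 to -0.592, 98 had a positive log2 fold change with a median of 0.70, and 45 were called higher and none lower, where 4.75% of all tested genes were called higher. Complete separation of the diets was found in 4 of the followers, against 0.0914% of all genes, and in 4 of the opposed genes, against 0.124% with every low plane library above every high plane library. Of all genes called lower other than ENSBTAG00000021237 itself, 96.7% had a positive r with it, against 49.9% of all tested genes. The remainders and the diet differences come from the same 18 libraries, and genes are not independent replicates.

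**Figure D4:**
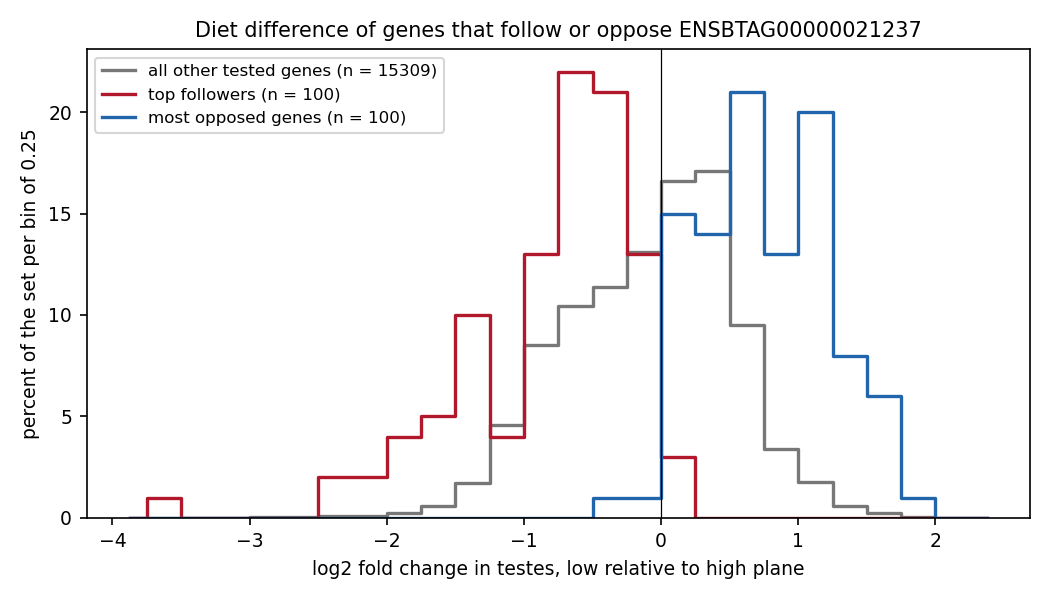
Share of genes per bin of log2 fold change in testes, for the 100 closest followers of ENSBTAG00000021237, the 100 most opposed genes and all 15309 tested genes other than ENSBTAG00000021237. The followers centre at -0.61 and the opposed genes at 0.70, on either side of the median of all genes at -0.01.

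Depth and the library score moved with these counts. When log2 library size entered the model none of the 100 followers was called lower, in a fit that called 2 of 15310 genes lower and none higher. With the library score as covariate 24 of the 100 were called lower, where 4.44% of all tested genes were. Ranking the followers after subtracting the library score as well gave 100 genes, of which 43 were among the first 100 and 39 were called lower in the fit without the score, where 2.16% of all tested genes were. The part of depth and of the score in the follower calls was otherwise not tested.

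The follower list overlapped more with that of the low plane libraries than with that of the high plane libraries. The remainders of ENSBTAG00000021237 ran from -0.65 to 0.36 on the low plane and from -0.26 to 0.34 on the high plane. The low plane libraries thus weighed more in the r over all testes libraries, so this overlap does not set the diets apart. Ranked in the 8 low plane libraries alone, the first 100 held 52 of the main list, and ranked in the 10 high plane libraries alone they held 16. The 2 diet-specific lists, each of 100 out of 15309 genes, shared 3 genes. Followers from the high plane had a median r of 0.154 in the low plane libraries, against -0.017 over all genes. There 61 of 100 were positive, against 49.3% of all genes. Followers from the low plane had a median r of 0.139 in the high plane libraries, against -0.029, and 68 of 100 were positive, against 44.2%. Each list held more genes called lower than the 2.16% of all genes. There were 24 of 100 from the high plane and 32 of 100 from the low plane. These calls come from the fit over all testes libraries, including those that chose each list, and are not independent of it.

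Single libraries changed the share of followers called lower, together with the share of all genes. When followers and calls were both redone without 1 library, the share ran from 11% without B2 to 88% without B42, while 0.318% and 8.95% of all tested genes were called lower in these same fits. It fell by a factor of more than 1.5 without A48 (24%), B32 (25%), B12 (16%), B5 (27%), B49 (19%), B38 (22%), B21 (18%), B2 (11%), B26 (28%) or B20 (16%). In each of the 18 fits the followers held a larger share of calls than all tested genes did. The list itself kept between 53 of its 100 genes (without B21) and 93 (without B5), with 60 without B42.

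**Figure D5:**
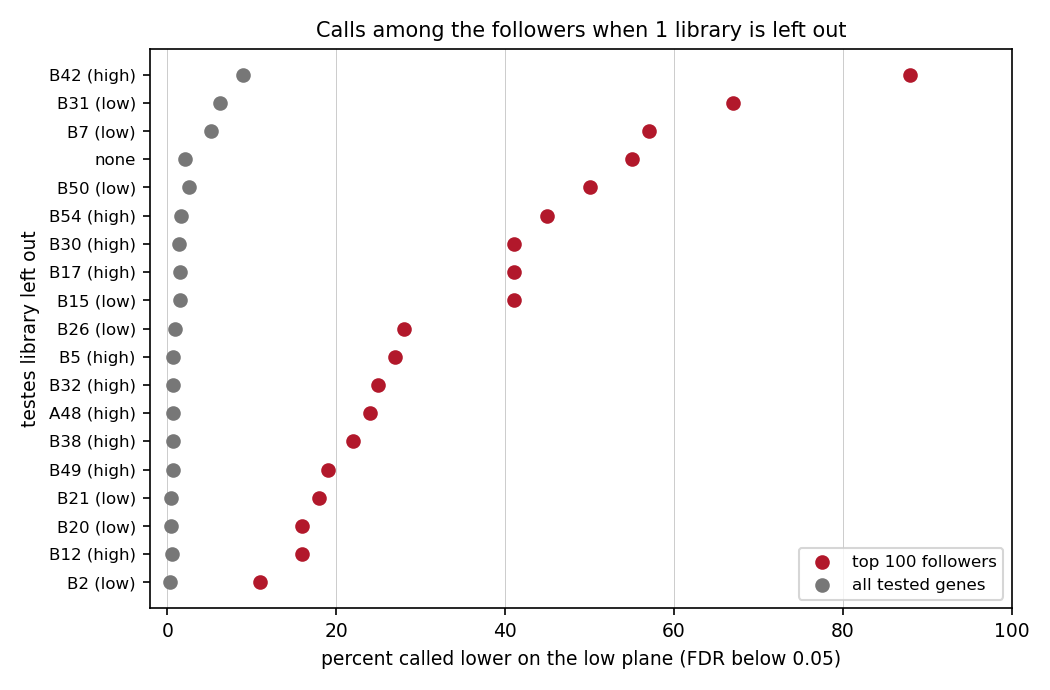
Percent of the 100 closest followers of ENSBTAG00000021237 called lower on the low plane, and the same percent of all tested genes, with each testes library left out in turn ("none": all 18 libraries). The followers run from 11% to 88% and lie to the right of all tested genes for every library left out.

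The same correlations were taken in the other tissues, whose libraries the ranking did not use. Of the 100 testes followers, 92 were also measured in the anterior pituitary, where their median r with it was 0.124 over 19 libraries, against 0.052 over all genes. Of the 94 measured in the arcuate nucleus, 87 had a positive r, against 55.6% of all genes. Their median r was 0.567, against 0.182 over all genes. That median was 0.024 without C6 and C33, the arcuate nucleus libraries whose library scores stood apart, so it rested on these libraries. For followers ranked after the library score, with the score also subtracted in the arcuate nucleus, it was 0.316 against 0.123 over all genes. There 74 of 93 were positive, against 59.7% of all genes. C6 and C33 were kept in that step, and no value without them was taken. In the anterior pituitary the same step gave a median r of -0.0043, against 0.0013 over all genes. Of the genes measured there 45 of 90 were positive, against 50.2% of all genes. None of the followers was called in the anterior pituitary or the arcuate nucleus by edgeR's quasi-likelihood test, where 0.562% and 0% of all tested genes were called, so the count is near the background. Their median log2 fold changes on the low plane were 0.09 and -0.11, against 0.02 and -0.01 over all genes. The arcuate nucleus value includes C6 and C33, which are both low plane libraries. By mean level, 54 of the 100 were higher in testes than in both other tissues, against 40.6% of all tested genes.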

How the data were processed

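Total RNA of each tissue was sequenced as single-end TruSeq mRNA libraries. The authors deposited for each library 1 file of whole-number counts of reads per Ensembl gene, without normalization. The submitters' processing notes name CASAVA 1.4, STAR, HTSeq and edgeR without their roles. The genome build and annotation release are not given in the sources used here. Diet and tissue labels set the groups. Low count genes were dropped tissue by tissue with filterByExpr, and TMM factors were computed. Diets were contrasted, low relative to high, with edgeR's quasi-likelihood test (edgeR 4.0.16, R 4.3.3), with Benjamini-Hochberg adjustment (FDR) over all genes of the tissue and a threshold of 0.05. The study's methods describe 1 library per calf and tissue, so libraries of a group came from separate calves, while the labels do not tie a library to a calf across tissues. Remainders for the followers used log2 CPM with a prior count of 2. The library score averages the 200 genes with the largest positive within-diet slopes on the first scaling dimension (500 genes, log2 fold change distance) of the other tissues.

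ENSBTAG00000021237, the 100 followers and the alternatives were chosen with earlier results of these data known. The genes to be named were ENSBTAG00000021237, the 15 closest followers, the 5 most opposed genes and the 10 neighbours in level. Only 2 followers and 2 opposed genes are printed by identifier, since no names could be paired. For the same reason the planned marker and pathway lists (cell types, cholesterol and androgen biosynthesis, oxidative defence) and the rank per gene length were not analysed here. Alternatives included DESeq2 1.42.0, the exact test of edgeR, voom weights in limma 3.58.1, other scalings, filters and covariates, 1 fit over all tissues, and leaving out each library. The main quasi-likelihood test and the follower ranking were checked on simulated data in each tissue. The simulated libraries held no shared axis like the library score, and the planted followers varied more than ENSBTAG00000021237 does within a diet. The check thus does not cover how the score or single libraries move the follower list. The alternatives were not checked in this way.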

Additional observations from a re-analysis of the deposited data

Results flagged for a closer look

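Dixon's test of the extreme value was applied to 14 groups of libraries, where chance alone would give about 0.7 values, and marked 2. The level of ENSBTAG00000021237 in the low plane arcuate nucleus library C6 was 435 CPM, with the nearest other library at 823 CPM. C6 also had the lowest library score of its tissue (-1.34) and 8670087 reads, and the part of these in the value was not tested. The level of the opposed gene ENSBTAG00000027625 in the low plane testes library B21 was 41.6 CPM, with the nearest at 15.8 CPM. ENSBTAG00000021237 had its lowest testes level, 355 CPM, in that library. The opposed gene was picked by its r over these same libraries, which favours an extreme value in B21. The chance figure therefore does not hold for this second value.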

How the results depend on the processing

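ENSBTAG00000021237 was picked from the testes contrast, so its values there are descriptions only. Its log2 fold change in testes kept its direction under all 11 alternatives, from -0.85 to -0.66, and in 18 fits without 1 library. Its place by reads in testes ran from 86 to 95. The log2 fold change in the anterior pituitary ran from 0.07 to 0.15 under the alternatives and from 0.05 to 0.15 without 1 library. No fit passed the threshold there (lowest FDR 0.608). In the arcuate nucleus none passed it either (lowest FDR 0.637). The sign turned there with the library score as covariate (0.019), and the fits without 1 library ran from -0.10 (without C34) to 0.00598 (without C6). Of the 100 followers, 57 stayed with Spearman's rho, 43 after the library score, 16 with high plane libraries alone and 52 with low plane libraries alone. Without 1 library between 53 and 93 stayed, with 60 without B42. The share of followers called lower was 24% with the library score as covariate, 0% with the log2 total count, 24% for followers of the high plane alone and 32% for those of the low plane alone, and 11% to 88% without 1 library. The cause of these changes was not tested. The median r of the followers in the anterior pituitary turned from 0.124 to -0.0043 after the library score. The alternatives that leave out libraries by score, rank followers by diet or redo the calls without 1 library were chosen after seeing the data. Over all testes genes the calls, 330 lower and 727 higher, depended on the method. They were 705 and 1242 with DESeq2, 5674 and 5472 with voom and quality weights, 311 and 2025 with library totals, 158 and 451 without a count filter, 680 and 271 with the library score and 2 and 0 with the log2 total count. In the anterior pituitary 81 calls became 573 lower and 519 higher with voom, 582 and 716 with the score, 191 and 75 with DESeq2, 120 and 19 with the exact test, 150 and 24 in 1 fit over all tissues and 46 and 4 with library totals. The rank per kilobase was not run, as no lengths were paired with these identifiers. The opposed gene ENSBTAG00000001728 rests on 13 to 128 reads per testes library, and the closest follower ENSBTAG00000010129 on 16 to 181. Counting error thus adds to the values of both genes.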
